A study of Mus musculus with 12 samples.

Results

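FMRP, its relatives and partners, the CPEB proteins and Pumilio 2 form a group of 10 genes for RNA-binding regulators of local synaptic translation and their direct partners: Fmr1, Fxr1, Fxr2, Cyfip1, Cyfip2, Cpeb1, Cpeb2, Cpeb3, Cpeb4 and Pum2. They were taken by name from the table of counts on coding sequence (CDS), which lists 20504 genes, and all 10 were found in it. All 10 also passed the filter on low counts, a mean of at least 37 counts over the libraries compared, in every comparison.

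Fmr1 encodes FMRP, an RNA-binding protein of neuronal granules and polysomes that is lost in fragile X syndrome and that restrains the translation of many synaptic mRNAs. Fxr1 and Fxr2 encode its autosomal paralogs. The CYFIP proteins bind FMRP and are also subunits of the WAVE complex, which drives actin branching. CYFIP1 has in addition been described as a partner of the cap-binding protein eIF4E. The CPEB proteins bind cytoplasmic polyadenylation elements in 3′ UTRs and can repress or activate an mRNA through its poly(A) tail, and Pumilio proteins bind their own 3′ UTR element and recruit deadenylases.

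Ribosome footprints (ribosome profiling, RPF) and poly(A) RNA were sequenced from the frontal lobe of adult mice that carried both a Camk2a-cre transgene and the RiboTag allele. In these animals Cre is driven by the Camk2a promoter in principal excitatory neurons of the forebrain, where the ribosomal protein Rpl22 then carries an HA tag. Mice A and B are called untreated in the labels and received vehicle (Captisol) by gavage according to the methods, and mice C and D received a single oral dose of 100 mg/kg AZD-8055, an ATP-competitive mTOR inhibitor, 1 h before they were killed. RNA-Seq of mice E and F, also called untreated, was made from homogenized tissue (input) and from polysomes immunoprecipitated through the HA tag (IP). The footprints and the RNA of mice A to D came from whole homogenate, so they hold all cell types. Each group had 2 mice. The spread behind the edgeR p-values and intervals was estimated with the help of all genes tested, and for TE over mice A to D together. These p-values thus do not measure the spread of 1 gene between 2 animals alone.

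On CDS the libraries held between 3503873 counts (footprints, mouse C) and 15585831 counts (input, mouse F), and the footprint library of mouse A (9259938) was the deepest of its kind. The 10 genes took 0.170% to 0.190% of the CDS counts in mice A to D, 0.211% and 0.212% in input, and 0.105% and 0.0984% in IP. In the IP the excitatory neuron markers summed to 100813 and 96115 normalised CDS counts, against 48326 and 45487 in input, with 4 of the 6 higher and 2 lower in the test on CDS, while all 6 inhibitory, all 6 astrocyte and all 6 oligodendrocyte markers, 3 of 3 of oligodendrocyte precursors, 4 of 5 of microglia and 4 of 4 of endothelium were lower. After AZD-8055 the translational efficiency of all 10 checked genes with a terminal oligopyrimidine (TOP) start, the known targets of mTOR, fell, with a median log2 change of −1.27.

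The gene bodies lie on 7 chromosomes of GRCm38.p6, the assembly that is also called mm10, according to RefSeq. Fmr1 spans chrX:68678536-68717963, Fxr1 chr3:34020058-34069980 and Fxr2 chr11:69632971-69653297. Cyfip1 spans chr7:55842022-55932633 and Cyfip2 chr11:46193849-46312859. The CPEB genes span chr7:81347026-81458001 (Cpeb1), chr5:43225349-43289724 (Cpeb2), chr19:37019341-37207620 (Cpeb3) and chr11:31870104-31935635 (Cpeb4), and Pum2 spans chr12:8674092-8752583. The counts were made on the exons or the CDS of these genes as the submitters annotated them.

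Since TOP mRNAs begin with an unbroken run of pyrimidines, the first 20 bases from the annotated RefSeq starts of the FMRP family are shown beside those of Rpl13a, a ribosomal protein gene among the 10 TOP genes. All are given 5′ to 3′ on the gene's own strand (GRCm38.p6), with the longest run of C and T in capitals.
Fxr1, chr3:34020079-34020098, plus strand: agaaTCTCTTCCCagcagcc
Fmr1, chrX:68678541-68678560, plus strand: gTTTgactgtttacaggagg
Fxr2, chr11:69632971-69632990, plus strand: gggaggtggaggCCgtggag
Rpl13a, chr7:45128726-45128745, minus strand: gaCCTCCTCCTTTCCCaggc

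The run was 9 bases long in Fxr1, 3 in the start of Fmr1 shown, 2 in Fxr2 and 14 in Rpl13a, and Fmr1 has another annotated start with a run of 2. Of 32851 annotated starts of all genes, 4.20% held a run of at least 9 pyrimidines in their first 20 bases. Of the regulators, 8 had a sequence at the annotated start, and 2 of their 13 starts held such a run, that of Fxr1 and 1 of the 3 starts of Cpeb3. Of the TOP genes, 6 of 10 had a sequence and only 1 of their 7 starts, that of Rpl13a, held such a run. Annotated starts can lie some bases away from those used in brain, so these letters describe the annotation and not the transcripts measured.

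Translational efficiency (TE), the ratio of footprints to RNA of the same brain, spread widely among the 10 genes in vehicle. It was high for Cpeb3 and Fmr1, close to that of the typical gene for Cyfip2, and low for Fxr2, Cpeb1 and Pum2. Against the typical gene, 6 of the 10 were higher (Fmr1, Fxr1, Cyfip1, Cpeb2, Cpeb3 and Cpeb4), 3 were lower (Fxr2, Cpeb1 and Pum2) and 1 was not called (edgeR quasi-likelihood test with the mouse as a block, adjusted p under 0.05). Of all 11797 genes tested, 76.1% were called, 37.7% higher and 38.3% lower. Since most genes were called, the sizes and the order of the values are given below rather than the count.

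The values below are CDS counts divided by DESeq2 size factors, and log2 TE is the log2 of their ratio within a mouse. Levels are compared only within a gene, because no coding lengths were used. Across the 10880 genes with enough counts in vehicle, log2 TE had a median of 0.016, a 5th percentile of −1.76 and a 95th percentile of 1.46.

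**Figure D1:**
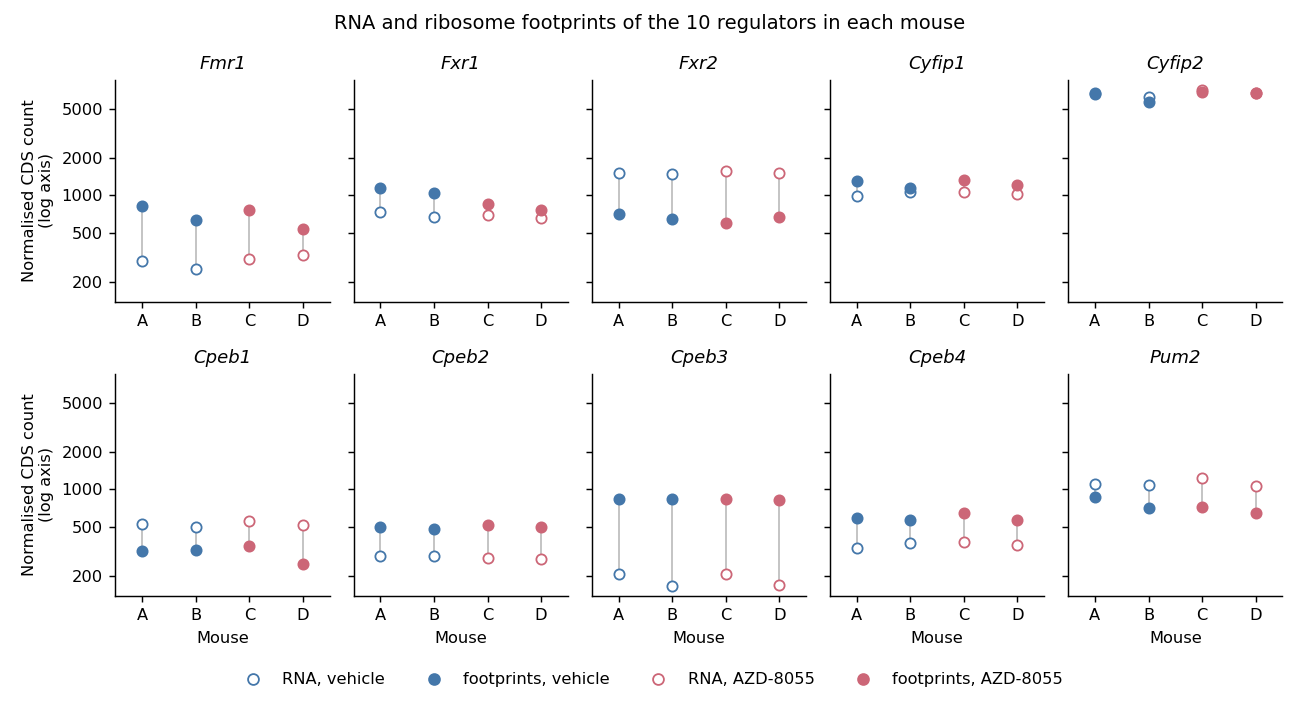
Normalised CDS counts (log axis) of RNA (open circles) and footprints (filled circles) in mice A and B (vehicle, blue) and C and D (AZD-8055, red), 1 panel per gene. A grey line joins both values of a mouse; footprints lie above RNA in all 4 mice for Fmr1, Fxr1, Cyfip1, Cpeb2, Cpeb3 and Cpeb4 and below it for Fxr2, Cpeb1 and Pum2.

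In mice A to D, Fmr1 had 293, 254, 307 and 327 normalised RNA counts. Its footprints were 820, 627, 767 and 538 in the same order. The footprints thus exceeded the RNA in every mouse, with the smallest excess in mouse D. The log2 TE was 1.48 and 1.30 in the vehicle mice, at the 94.2 percentile of all genes, and 1.32 and 0.72 in the mice treated with AZD-8055. The fitted log2 TE in vehicle was 1.44 (SE 0.11, adjusted p = 1.36e-11), a 2.72-fold excess of footprints over RNA relative to the typical gene.

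The paralogs of Fmr1 fell on either side of the typical gene. For Fxr1 the log2 TE was 0.63, 0.64, 0.29 and 0.21 from mouse A to mouse D, and its fitted value in vehicle was 0.68 (SE 0.071, adjusted p = 6.80e-09). Fxr2 had more RNA (1525, 1477, 1568 and 1507 normalised counts in mice A to D) than footprints (705, 649, 598 and 673). Its log2 TE of −1.11, −1.19, −1.39 and −1.16 lay at the 12.3 percentile in vehicle, with a fitted value of −1.10 (SE 0.074, adjusted p = 1.98e-12). The values of Fmr1, Fxr1 and Fxr2 kept this order from high to low in each of the 4 mice.

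Within this family the log2 TE of Fmr1 exceeded that of Fxr2 by 2.42 ± 0.37 (SD, n = 4 mice) and that of Fxr1 by 0.76 ± 0.23, and Fxr1 exceeded Fxr2 by 1.66 ± 0.20. In an exact two-sided sign-flip permutation test over the 4 mice, each of these 3 differences had the smallest p that 4 mice allow (0.13), which was 0.139 after adjustment over the 10 pairs of relatives compared. Both treatments are pooled in this test, and the design cannot reach p under 0.05.

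The CYFIP genes lay near the middle of the distribution. The log2 TE of Cyfip1 was 0.41, 0.13, 0.33 and 0.24 across mice A to D, and its fitted value in vehicle, 0.32 (SE 0.071, adjusted p = 2.72e-04), was no longer called without mouse A (0.20, adjusted p = 0.116). Cyfip2 had values of 0.03, −0.14, −0.06 and −0.00 in the same order. Its fitted value of −0.01 had a 95% interval from −0.13 to 0.11, and it became a call of lower TE (−0.14, adjusted p = 0.0286) only when the libraries were scaled by total counts, which moved the median of all genes to −0.15. In each mouse Cyfip1 lay above Cyfip2, by 0.32 ± 0.077 (SD, n = 4 mice), again with the smallest p that the exact sign-flip test allows.

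The CPEB genes spanned almost the whole range of the 10. Cpeb3 had only 209, 167, 206 and 170 normalised RNA counts in mice A to D and 840, 833, 835 and 822 footprints. The footprints were thus nearly equal in the 4 mice, whereas the RNA was higher in mice A and C than in mice B and D. Its log2 TE of 2.01, 2.32, 2.02 and 2.27 was the highest of the 10 in every mouse and lay at the 98.8 percentile in vehicle, with a fitted value of 2.20 (SE 0.10, adjusted p = 3.04e-15), a 4.58-fold excess of footprints.

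Cpeb2 and Cpeb4 lay next to each other. The log2 TE of Cpeb2 was 0.80, 0.73, 0.87 and 0.86 in mice A to D. That of Cpeb4 was 0.80, 0.61, 0.78 and 0.67. They differed by 0.10 ± 0.084 (SD, n = 4 mice), Cpeb2 being higher in 3 of 4 mice (exact sign-flip p = 0.250, in a design that cannot reach 0.05). Cpeb1, the founding member of the family, was set apart, with 528, 494, 554 and 515 normalised RNA counts against 320, 320, 350 and 249 footprints. Its log2 TE of −0.72, −0.62, −0.66 and −1.05 was lower than that of each other CPEB gene in each mouse. The difference, Cpeb1 minus the other gene, was −1.58 ± 0.24 for Cpeb2, −2.92 ± 0.29 for Cpeb3 and −1.48 ± 0.20 for Cpeb4 (SD, n = 4 mice, each at the smallest p the exact sign-flip test allows).

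Pum2 had 1100, 1095, 1241 and 1074 normalised RNA counts and 863, 711, 722 and 649 footprints in mice A to D. Its log2 TE was −0.35, −0.62, −0.78 and −0.73, at the 29.7 percentile in vehicle, and the fitted value was −0.43 (SE 0.074, adjusted p = 1.34e-05). In the order of mean log2 TE in vehicle, Cpeb3 was followed by Fmr1, Cpeb2, Cpeb4, Fxr1, Cyfip1, Cyfip2, Pum2, Cpeb1 and Fxr2. The values of mice A and B overlapped between the neighbours Cpeb2 and Cpeb4 and between Cpeb4 and Fxr1, those of Pum2 and Cpeb1 met at −0.62, and those of the other neighbours did not overlap. The same 6 genes higher and 3 lower were found after AZD-8055, where 72.7% of all genes were called.

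**Figure D2:**
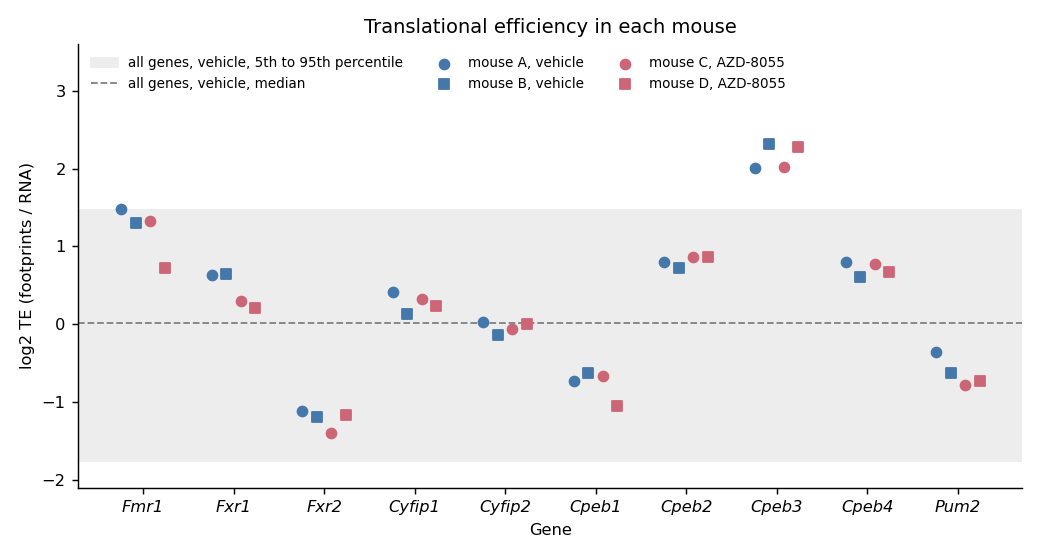
Log2 TE of each gene in mice A and B (vehicle, blue circle and square) and C and D (AZD-8055, red circle and square). The dashed line is the median of all genes in vehicle (0.016) and the grey band runs from the 5th to the 95th percentile; Cpeb3 lies above the band in all 4 mice, and Fxr2 is the lowest of the 10 in each.

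Lists of the proteins that work with these regulators, and of their target mRNAs, were followed in the same fit. For every list the share to set beside it is that of all genes, 37.7% higher and 38.3% lower. Of 18 partners of FMRP in RNA granules, 12 had a TE above the typical gene and 5 below, with a median log2 TE of 0.81 against −0.01 over all genes. Those higher with the lowest p were Pura (2.94), which binds purine-rich nucleic acids in transport granules, the stress granule protein G3bp2 (2.06) and the RNA helicase Ddx6 (1.94), whereas the RNA helicase Mov10 (−2.26) and Dicer1 (−1.84), which cuts miRNA precursors, were lower. Of 10 members and regulators of the WAVE complex, the other partners of the CYFIP proteins, 6 were higher, among them Abi2 (1.76), Brk1 (1.23) and the GTPase Rac1 (1.16), and Wasf3 (−0.24) was lower.

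CPEB and Pumilio proteins act through polyadenylation and deadenylation factors. Of 13 genes of cytoplasmic polyadenylation, 3 were higher, Ddx6 (1.94), Cpsf2 (0.73) and Tob2 (0.40), and 7 lower, with a median log2 TE of −0.67. The lowest p among those lower were those of Neurl1a (−2.14), a ubiquitin ligase for CPEB3, the scaffold Sympk (−1.37) and the cleavage and polyadenylation factor Cpsf1 (−1.04). Of 12 Pumilio, Nanos and CCR4-NOT genes, 3 were higher and 6 lower, with a median of −0.15, among them the deadenylase genes Cnot6l (1.17) and Cnot6 (−1.97). Of 9 genes of cap-binding proteins, their partners and related initiation factors, 2 were higher, Eif4e (1.01) and its inhibitor Eif4ebp2 (0.82). Another 5 were lower, such as Eif4g2 (−1.41). Of 19 other neuronal RNA-binding proteins, 13 were higher, with a median of 0.66, including Elavl1 (2.18), Ptbp2 (1.62) and Celf2 (1.55), and 3 were lower.

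The mRNAs known to be bound by FMRP did not share 1 level of TE. Of 29 tested, 16 were higher and 11 lower, from −3.31 for the postsynaptic scaffold gene Dlgap3 to 4.46 for Grin2b, a subunit of the NMDA receptor, with a median log2 TE of 0.16. Of 9 mRNAs described as CPEB targets, 6 were higher, among them Map2 (1.06) and Gria2 (1.02), and 2 were lower, Dlg4 (−2.20) and Itpr1 (−0.60).

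The second question of the study is which mRNAs change their TE 1 h after mTOR inhibition. Among the 10 regulators none passed the test for a change in TE (edgeR, 0 of 10 called), against 0.865% of all 11797 genes (102 genes). In this test 2 of the 10 had an unadjusted p under 0.05, as had 796 of the 11797 genes. With the mouse as a block the test called 1.25% of all genes and again 0 of the 10. DESeq2's Wald test called 0 of the 10 and 115 of all genes. The RNA of the 10 did not pass the edgeR test either (0 of 10 called, against 0.148% of 12182 genes). An unadjusted p under 0.05 was found for 0 of the 10 and for 1004 of the 12182 genes. For RNA the Wald test called 0 of the 10 and 28 of all genes. The log2 changes in RNA went from −0.08 for Cpeb2 to 0.19 for Fmr1.

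The footprints of 1 gene, Fxr1, fell after AZD-8055, against 1.03% of 10695 genes called and 0.982% called lower. Fxr1 had 1138 and 1047 normalised footprints in the vehicle mice and 855 and 758 in the treated mice. Its RNA was 734 and 670 in vehicle and 697 and 657 after treatment. The footprints of the groups did not overlap, whereas the RNA did. The log2 change was −0.44 for footprints (SE 0.080, 95% interval −0.62 to −0.27, adjusted p = 0.0253), a 1.36-fold decrease, and −0.07 for RNA (interval −0.23 to 0.09, adjusted p = 0.836).

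The call for Fxr1 footprints needed both vehicle mice, since the value was −0.42 without mouse A (adjusted p = 0.380) and −0.46 without mouse B (adjusted p = 0.357). Its TE change was −0.39 (SE 0.11, interval −0.63 to −0.15, adjusted p = 0.228) and −0.38 with the mouse as a block (adjusted p = 0.0861), and it did not pass the test in either fit. None of the cell type markers passed the test for a change in RNA or in footprints. In bulk tissue fewer cells of a type and less RNA per cell cannot be told apart.

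Fmr1 had the same estimated TE change as Fxr1 with a wider interval (−0.39, SE 0.19, −0.80 to 0.02, adjusted p = 0.753). Its log2 TE after AZD-8055 was 1.32 in mouse C, which lay within the vehicle values of 1.30 and 1.48, and 0.72 in mouse D, which lay below both. Its footprint change of −0.18 (adjusted p = 0.640) moved to −0.42 when mouse C was left out. It was 0.05 when mouse D was left out and 0.0030 when mouse A was left out. Each of these fits leaves 1 mouse in a group, so only the sizes are given. The direction of the footprint change of Fmr1 thus needed both mice A and D.

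Pum2 had a TE change of −0.29 (SE 0.13, interval −0.56 to −0.02, adjusted p = 0.705), which did not pass the test. Its log2 TE was −0.35 and −0.62 in vehicle and −0.78 and −0.73 after AZD-8055. For the other 7 genes the estimates lay between −0.18 (Cpeb1) and 0.11 (Cpeb2). Among these 7 the interval was narrowest for Cyfip2, from −0.18 to 0.21, and widest for Cpeb1, from −0.53 to 0.17. The lowest bound of the 10 intervals, that of Fmr1, was −0.80, so none of them reached the median change of the TOP genes.

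**Figure D3:**
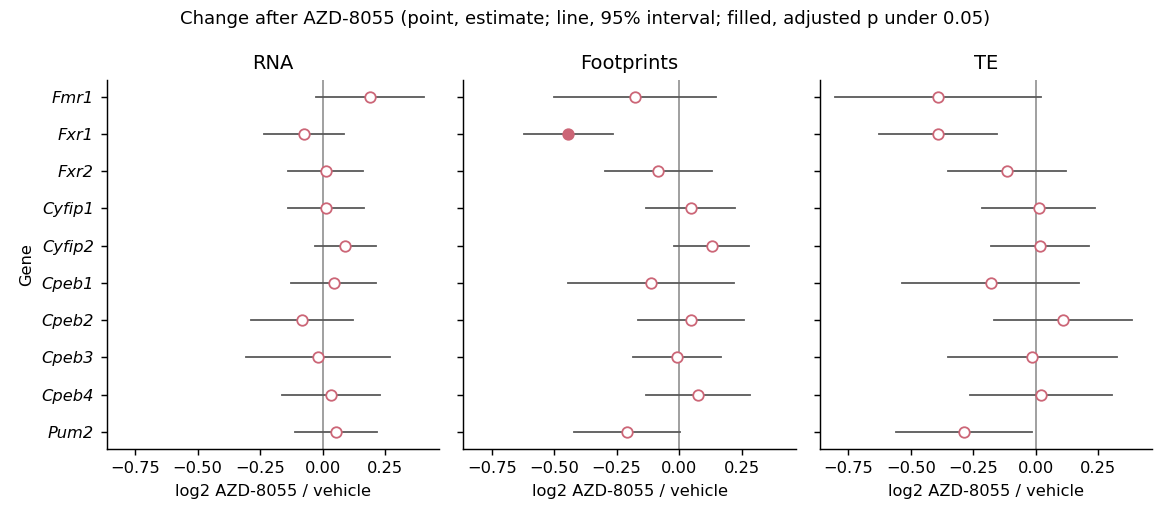
Log2 change after AZD-8055 of RNA, footprints and TE for each gene (point, edgeR estimate from 2 against 2 mice; line, 95% interval; filled point, adjusted p under 0.05). The footprints of Fxr1 (−0.44) are the only filled point, and the TE intervals of Fxr1 and Pum2 lie below 0 without passing the adjusted test.

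Among the partners, the change in TE reached the threshold in few genes. In the cap-binding list Pabpc1, which encodes the cytoplasmic poly(A)-binding protein and is itself a TOP gene, fell by 1.34 on the log2 scale (SE 0.14, adjusted p = 4.32e-05), and the other 8 were not called. In the lists of granule partners, WAVE complex, polyadenylation, Pumilio and deadenylation, CPEB targets and other RNA-binding proteins 0 genes were called.

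Of the 29 FMRP target mRNAs 1 was called, Bsn, a scaffold of the presynaptic active zone, whose TE rose by 0.48 (SE 0.099, adjusted p = 0.0279). The list had a median TE change of 0.17 and 25 of 29 estimates above 0, against a median of −0.01 and 48.1% above 0 over all genes. The median was 0.12 for its footprints and −0.04 for its RNA, and 0 of the 29 were called in either. Many of these genes have long coding sequences, whose part in this was not tested.

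The third comparison asks which mRNAs are enriched on the tagged ribosomes of excitatory neurons. On CDS counts, IP against input, 1 of the 10 regulators was higher (Fxr2), 8 were lower and Fxr1 was not called. Of all 12211 genes 75.5% were called, 36.5% higher and 39.0% lower. On the counts over whole exons 1 was higher, 4 were lower and 5 were not called, where 69.4% of all genes were called, 33.7% higher and 35.7% lower. Calls in the same direction on both tables were thus made for Fxr2 (higher) and for Cyfip1, Cpeb2, Cpeb3 and Cpeb4 (lower). Of all genes, 61.2% had such calls, 30.8% higher and 30.4% lower. The exon counts include the CDS counts, so the tables are not independent and a call on both is not a second, separate result.

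Fxr2 had 1873 and 1716 normalised CDS counts in the input of mice E and F and 3722 and 3641 in their IP. Its log2 ratio of IP to input was 0.99 and 1.09 on CDS and 0.79 and 0.82 on exons. Both mice and both tables thus put Fxr2 higher in the IP, with fitted values of 0.90 (SE 0.11, adjusted p = 9.39e-05) and 0.69 (SE 0.098, adjusted p = 0.00108). The low TE of Fxr2 and its presence in the IP were measured in different mice and different cell populations.

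Cpeb4 and Cyfip1 had the lowest ratios on exons and stayed low on both tables. Cpeb4 had 651 and 781 normalised CDS counts in input and 153 and 149 in IP, from raw counts of 866, 1280, 103 and 104. The fitted log2 ratio was −2.38 on CDS (SE 0.16, adjusted p = 3.98e-06), a 5.19-fold decrease, and −2.82 on exons. Cyfip1 had 1421 and 1470 in input and 508 and 602 in IP, with −1.51 on CDS (SE 0.13, adjusted p = 1.14e-05) and −1.73 on exons (SE 0.100, adjusted p = 7.20e-05).

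Cyfip2 differed from its paralog on exons. It had 10937 and 10976 normalised CDS counts in input and 6892 and 6737 in IP, but 24881 and 24351 normalised exon counts in input and 24662 and 23463 in IP. Its exon ratio was −0.15 (95% interval −0.34 to 0.04, adjusted p = 0.134). The log2 ratio of Cyfip1 minus that of Cyfip2 was −0.82 and −0.58 on CDS in mice E and F and −1.67 and −1.50 on exons. With 2 mice no exact test of this difference can pass a threshold.

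The calls of Fmr1, Pum2 and Cpeb1, like that of Cyfip2, differed between the tables. Fmr1 had 595 and 688 normalised CDS counts in input and 386 and 332 in IP, a fitted log2 ratio of −0.97 (SE 0.15, adjusted p = 3.46e-04). On exons it had 1653 and 2000 in input and 1948 and 1933 in IP, log2 ratios of 0.24 and −0.05 with DESeq2 size factors. The fitted exon ratio, which used TMM scaling instead, was −0.03 (interval −0.31 to 0.25, adjusted p = 0.830). Pum2 likewise went from a fitted −1.41 on CDS (adjusted p = 2.02e-05) to −0.07 on exons (interval −0.29 to 0.15, adjusted p = 0.538). Its exon ratios per mouse, with DESeq2 size factors, were 0.15 and −0.05. The sign of these small exon values thus differed between mice and scalings.

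Fxr1 was not called on either table, with 0.23 on CDS (interval −0.03 to 0.50, adjusted p = 0.0964) and −0.15 on exons (adjusted p = 0.253). With the mouse as a block its CDS ratio of 0.23 passed the threshold (adjusted p = 0.0436), which made 10 of 10, against 81.9% of all genes. The CDS and exon ratios were −0.74 and −0.34 for Cpeb1, −1.71 and −0.38 for Cpeb2, and −1.57 and −0.90 for Cpeb3. With the mouse as a block the exon ratios of Cyfip2 (−0.15, adjusted p = 0.0417) and Cpeb1 (−0.33, adjusted p = 1.56e-04) were also called, which made 7 of 10, against 80.9% of all genes. The exon log2 ratios of Cyfip2 per mouse, with DESeq2 size factors rather than the TMM scaling of the fit, were −0.013 and −0.054. The size of its estimate thus depended on the scaling.

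**Figure D4:**
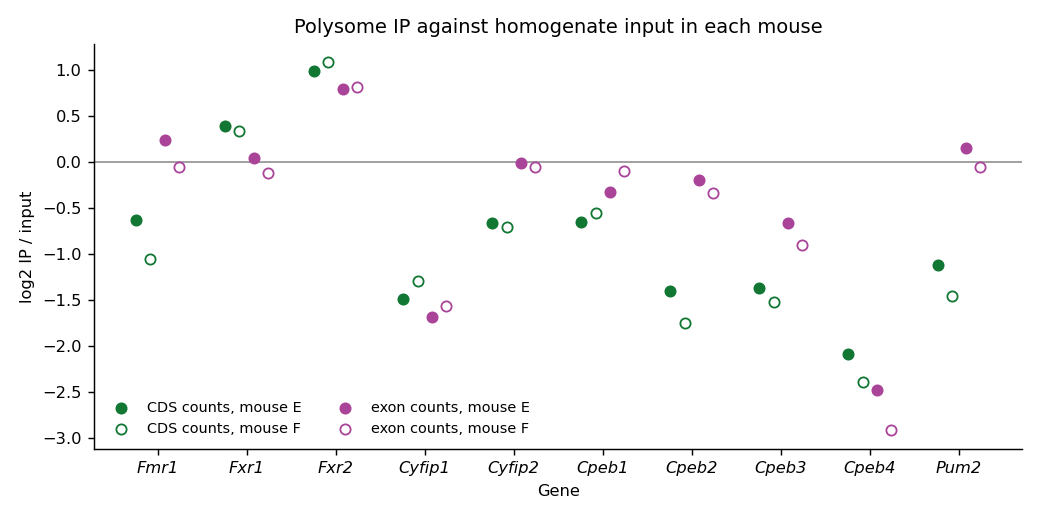
Log2 ratio of IP to input for each gene in mouse E (filled) and mouse F (open), from CDS counts (green) and exon counts (purple), with DESeq2 size factors. Fxr2 lies above 0 in all 4 values, Cyfip1, Cyfip2 and the CPEB genes below 0 in all 4, and the exon values of Fmr1 and Pum2 lie on either side of 0.

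Beside these ratios the share of a gene's exon counts that fell on its CDS changed between input and IP. For Fmr1 it was 43.5% and 39.7% in the input of mice E and F and 17.7% and 13.8% in the IP. For Pum2 it went from 47.0% and 44.1% to 14.4% and 11.7%, and for Cpeb2 from 26.9% and 25.9% to 8.65% and 6.82%. In these 3 genes the input and IP values lay far apart.

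It was almost the same in input and IP for Cpeb4 (93.7% and 93.3%, then 91.2% and 93.7%) and for Fxr1 (90.1% and 89.1%, then 84.7% and 85.0%). The median over all genes went from 66.7% and 65.5% to 51.4% and 47.8%, so the coding share fell in general and fell by more percentage points in Fmr1, Pum2, Cyfip2, Cpeb1 and Cpeb2 in both mice. Outside the CDS, Fmr1 had 1028 counts in input and 1204 in IP in mouse E and 1713 and 1445 in mouse F, a log2 ratio of 0.78 and 0.47 after normalisation. For Cpeb2 this ratio outside the CDS was 0.13 and −0.0047 in mice E and F, so its lower exon ratio rested mainly on its CDS counts. It was 1.73 and 1.64 for Fxr2, −0.40 and −0.26 for Cyfip1, and −0.35 and −0.65 for Cpeb3. Like that of Fmr1, it was above 0 in both mice for Pum2 (0.84 and 0.61) and Cyfip2 (0.67 and 0.63). The same held for Cpeb1 (0.28 and 0.57) and Fxr1 (0.67 and 0.35). Cpeb4 had only 10 and 7 such counts in the IP, against 58 and 92 in input. The part of read coverage along the transcript in the IP ratios was not tested.

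**Figure D5:**
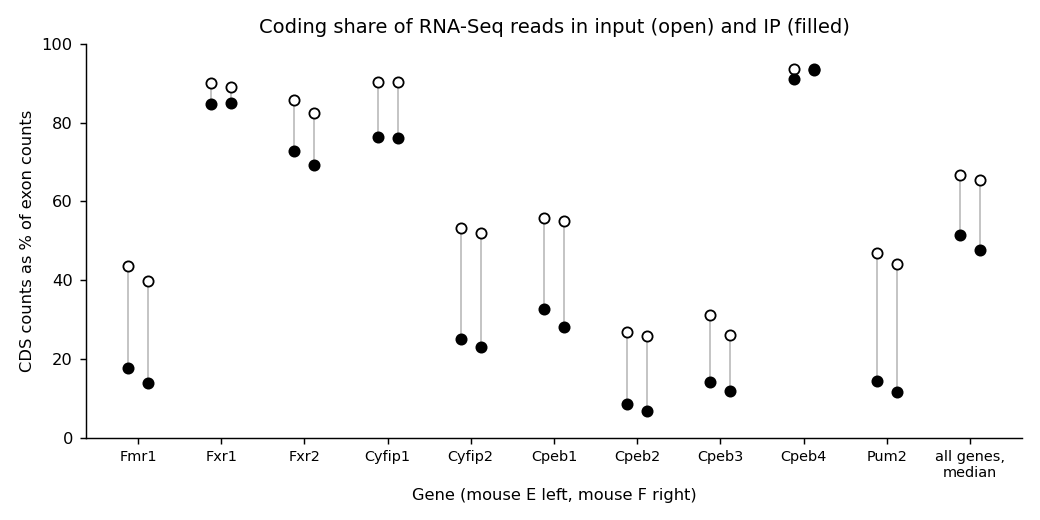
CDS counts as a percentage of exon counts in input (open) and IP (filled) for each gene, mouse E on the left and mouse F on the right of each pair, with the median of all genes at the far right. The share falls from 39.7% or more to 17.7% or less in Fmr1 and stays above 91% in Cpeb4.

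The markers of other cell types moved with these comparisons. The summed normalised CDS counts of the 6 astrocyte markers were 13653 and 12798 in input and 1206 and 1419 in IP. Those of the 6 oligodendrocyte markers were 22180 and 21182 in input and 2495 and 2637 in IP, and those of the 6 inhibitory markers 9204 and 9477 against 2969 and 2092. The medians of their log2 ratios were −4.41, −2.71 and −1.99. No marker of these lists was at 0 in any library. The part of other cell types in the lower ratios of Cyfip1 and the CPEB genes was not tested.

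Partners of the regulators were found on both sides in the IP. Of all genes, 30.8% were higher and 30.4% lower on both tables, the shares to set beside each list. Of 10 WAVE complex genes, 3 were higher on both tables, Brk1 (1.71 on CDS), Wasf1 (0.52) and Rac1 (0.33), and 5 were lower, such as Wasf2 (−2.89) and Nckap1l (−2.28). Of 18 granule partners 1 was higher on both tables, Nufip1 (1.07), and 3 were lower. Of the 29 FMRP targets 4 were higher on both tables, among them Lingo1 (1.41) and Dlg4 (1.01), and 16 were lower, with a median of −0.66 on CDS and −0.59 on exons against −0.07 and −0.03 over all genes. Of 9 CPEB targets 1 was higher and 5 were lower, and of 13 genes of cytoplasmic polyadenylation 0 were higher and 3 lower.

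The profile of each regulator over all 12 libraries was compared with those of 12012 genes, as the root mean square difference of centred log2 normalised CDS counts. The genes most like Fmr1 were Ipo11 (0.13), an importin, Gria3 (0.14), a subunit of the AMPA receptor, and Appl1 (0.15), an endosomal adaptor. Among the 10 regulators themselves the closest pair on CDS was Cpeb2 and Cpeb4 at 0.21. On exons their log2 IP ratios lay far apart, by 2.29 and 2.58 in mice E and F, against 0.69 and 0.65 on CDS. The nearest of the 10 to Fmr1 was Cpeb2 at 0.40, and Fxr2 lay 0.59 from its nearest, Cpeb1.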

How the data were processed

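The authors trimmed and clipped the footprint reads, removed those that mapped to rRNA with Bowtie2, used TopHat2 for the alignment of what was left, and HTSeq for counting. The submitters' processing notes name the build mm10. The authors deposited unnormalised read counts per gene symbol in 2 tables, CDS counts of all 12 libraries and exon counts of the 8 RNA-Seq ones. A removal of PCR duplicates from these counts is not given in the sources used here.

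Groups came from the labels of the 6 mice. TE, footprint, RNA and IP values were tested over every gene whose mean count was 37 or more by the quasi-likelihood test of edgeR 4.0.16 under R 4.3.3 (TMM, Benjamini-Hochberg adjusted p under 0.05), in place of the study's RiboDiff. The TE level is the footprint term within mouse, and the TE change is the interaction of library type and treatment. Values per mouse used DESeq2 1.42.0 size factors, and TE over a group needed a sum of 75 counts. Intervals are 95% from the fit. Likeness used a pseudocount of 1. Python 3.11.15, pandas 2.3.3, scipy 1.17.1 and matplotlib 3.10.9 did the rest. The edgeR fits were tested on simulated counts, and the sign-flip test on a set of fixed values.

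Libraries with the same letter come from the same brain, so the letters pair them. The deviations of both libraries of a mouse from the group mean were correlated at 0.243 (mice A and B, 10167 genes), 0.197 (C and D, 9364 genes) and 0.476 (E and F, 10150 genes), across genes.

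The 10 regulators and the gene lists were chosen with earlier results of these data known. The genes named are the 10 regulators, up to 3 per list and direction with the lowest adjusted p, and the 3 most like Fmr1. The ends of the range of the FMRP targets fall under this rule too. A gene that this rule covers is not reported here. The alternatives were DESeq2 size factors, total counts, no filter, DESeq2's Wald test, the block in or out, exon counts, a pseudocount and leaving out each mouse.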

Additional observations from a re-analysis of the deposited data

How the results depend on the processing

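The number of regulators called was 8 to 10 for the vehicle TE level and 8 or 9 for the AZD TE level in every setting, and 0 for the changes in TE and RNA. Without each mouse in turn the footprint change gave between 0 and 2 calls (1 with all mice), the vehicle TE level 8 or 9, and 9 or 10 pairs of relatives kept their sign in all mice. On exon counts the IP gave 5 calls in place of 9, and with the mouse as a block, chosen after seeing the data, 7. On CDS the block gave 10 calls in the IP in place of 9 and 0 for the TE change, and the TE levels without the block gave 9. Over all genes the footprint change gave 110 calls, 264 without the filter and 64 to 837 without each mouse in turn, the TE change 102, and 56 to 77 without each mouse, and the RNA change 18, and 78 without the filter. Leaving out mouse E or F left no residual degrees of freedom for the IP, so those values have no test.

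Of the recomputed values 524 kept their direction and their side of the threshold, 41 changed sign and 10 lost a call. Those that changed sign were not called in the tests as designed, though Fxr1 in the IP was called on CDS with the block (0.23) and with DESeq2 size factors (0.29). Fxr1 in the IP was −0.21 with total counts, which moved the median of all genes to −0.51, −0.15 on exons and −0.15 on exons with the block. The vehicle TE of Cyfip2 was 0.0060 with DESeq2 size factors and 0.0059 with the Wald test, and its AZD TE −0.087 with total counts and −0.12 without the filter. The TE change of Cpeb3 was 0.025 with total counts, and without the filter those of Cyfip1, Cyfip2 and Cpeb4 were −0.032, −0.026 and −0.025. The RNA change of Cpeb3 was 0.0088 on exons, and its footprint change 0.0020 with total counts. Without each mouse in turn, the TE of Cyfip2 ranged from −0.066 to 0.053 in vehicle and from −0.022 to 0.071 after AZD-8055. The TE changes ranged from −0.10 to 0.13 (Cyfip1), −0.040 to 0.084 (Cyfip2), −0.20 to 0.16 (Cpeb3), −0.056 to 0.090 (Cpeb4), −0.26 to 0.0098 (Fxr2) and −0.35 to 0.0038 (Cpeb1). The RNA changes ranged from −0.048 to 0.080 (Cyfip1), −0.16 to 0.14 (Cpeb3), −0.046 to 0.12 (Cpeb4), −0.0080 to 0.033 (Fxr2), −0.00013 to 0.088 (Cpeb1) and −0.044 to 0.15 (Pum2). The footprint changes ranged from −0.42 to 0.047 (Fmr1), −0.045 to 0.023 (Cpeb3), −0.20 to 0.014 (Fxr2), −0.0019 to 0.097 (Cyfip1) and −0.33 to 0.11 (Cpeb1). The causes were not tested. With 2 mice a group and as few as 164 footprints (Cpeb1, mouse C), changes of the sizes estimated here could not be told from 0 for most of the 10.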
